A study of Gossypium hirsutum with 45 samples.

Results

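Leaves of upland cotton (Gossypium hirsutum) seedlings after 180 min in 10% PEG 6000 were compared with leaves taken at 0 min, before treatment. The comparison covered every gene with at least 1 FPKM (read fragments for each kilobase of a gene, corrected for depth) in at least 3 of the 15 leaf libraries. This kept 46265 of the 75376 genes in the deposited table, of which 37331 carried a description. Of these, 907 genes needed the 180 min libraries and 924 the 0 min libraries to reach that level in 3. Such a gene was high in that group by the choice of the filter, so its difference is a description: it is marked filter dependent, and no test is given for it.

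The series holds 45 libraries of leaf, root and stem at 0, 10, 30, 60 and 180 min, with 3 libraries in each of 15 groups. All plants were cultivar Hengmian HD008, raised in sterilized sand and treated at the 3-leaf stage, and no group carried a transgene or another agent. The 6 libraries compared here are leaf 0 min (called CK in the labels, no PEG) replicates 1 to 3 and leaf 180 min (10% PEG 6000) replicates 1 to 3. PEG 6000, a large polymer that roots hardly take up, draws water away from them and is used to imitate drought.

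Nothing in the labels says that replicates came from separate plants. The p-values therefore reflect no more than the spread among the libraries, which may be technical. No plants kept without PEG until 180 min are among the libraries used here, so the effect of PEG cannot be told apart from that of the hour of the day and of handling. In whole leaves, fewer cells of a type and less RNA per cell cannot be told apart either. Gene positions come from the deposited table, which names no genome build. Cotton is an allotetraploid with A and D subgenomes. The sources used here do not say how reads matching both copies were treated or whether the count was stranded, which leaves near-identical A and D copies and overlapping genes uncertain.

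When water becomes scarce, plants make the hormone abscisic acid, which closes stomata and switches on genes for protective proteins and sugars through kinases, phosphatases and bZIP factors. Leaves also change the water channels of their membranes, strengthen the waxy cuticle and slow growth. Phosphoinositide signalling, the theme of the series, runs beside this: phospholipase C cleaves a phosphorylated membrane lipid into diacylglycerol and an inositol phosphate, and diacylglycerol kinases turn the former into phosphatidic acid.

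With limma on log2(FPKM + 1), 9019 genes (19.5% of those tested) differed between 180 and 0 min at an adjusted p under 0.05. Of these, 4574 rose (9.89%), 328 of them filter dependent, and 4445 fell (9.61%), 123 of them filter dependent, and the median log2 change over all tested genes was -0.04. The A subgenome gave 2209 that rose and 2210 that fell of 22603 tested, and the D subgenome 2363 and 2230 of 23564. The 3 libraries at 180 min lay wholly above or wholly below the 3 at 0 min in 40.8% of tested genes, called or not. Counts of a gene list are to be read beside the shares over all tested genes, 9.89% rising and 9.61% falling. Such counts include filter dependent genes unless stated otherwise. Below, 3 values at a time are replicates 1, 2 and 3 in that order, and means stand with their SD (n = 3). A gene's position (chromosome, first and last base) follows its name, and its values are followed by the change in log2(FPKM + 1) from 0 to 180 min with its limma test. Libraries held 16975507 to 19179078 reads counted in genes, so that a single read over 1 kb of gene weighed 0.0496 to 0.0554 FPKM.

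The first principal component of the 15 leaf libraries (32.6% of the variance) set the 180 min libraries, at 104 to 129, apart from all others, which reached at most 20.4. On the second component (19.0%) replicate 3 at 0 min stood at 6.32, away from the other two at 84.5 and 64.9. Without that library 3815 genes rose and 3348 fell. Leaving out replicate 1 at 180 min gave 3122 and 2774, and leaving out replicate 2 at 180 min gave 3046 and 2744. As a check of the tissue label, the levels of all 297 photosynthesis genes in the table were summed. At 0 min the sum was 29540.00 to 34501 FPKM in the leaf libraries, against a mean of 5755 in stem and 131 in root.

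**Figure D1:**
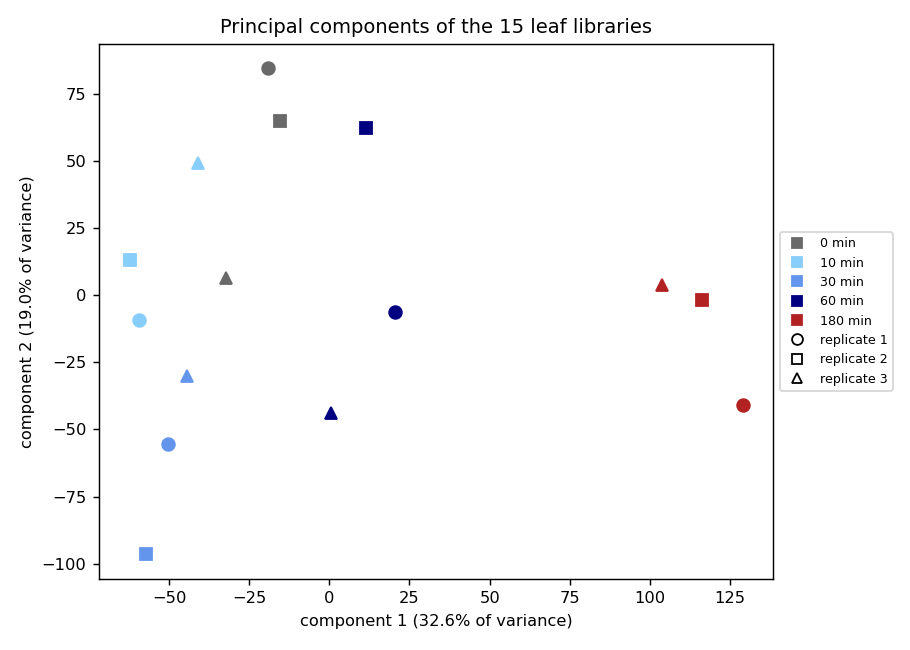
Principal components of log2(FPKM + 1) in the 15 leaf libraries, coloured by time, with the symbol giving the replicate. The 180 min libraries lie at 104 to 129 on the first component, and replicate 3 at 0 min lies at 6.32 on the second, below replicates 1 and 2.

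**Figure D2:**
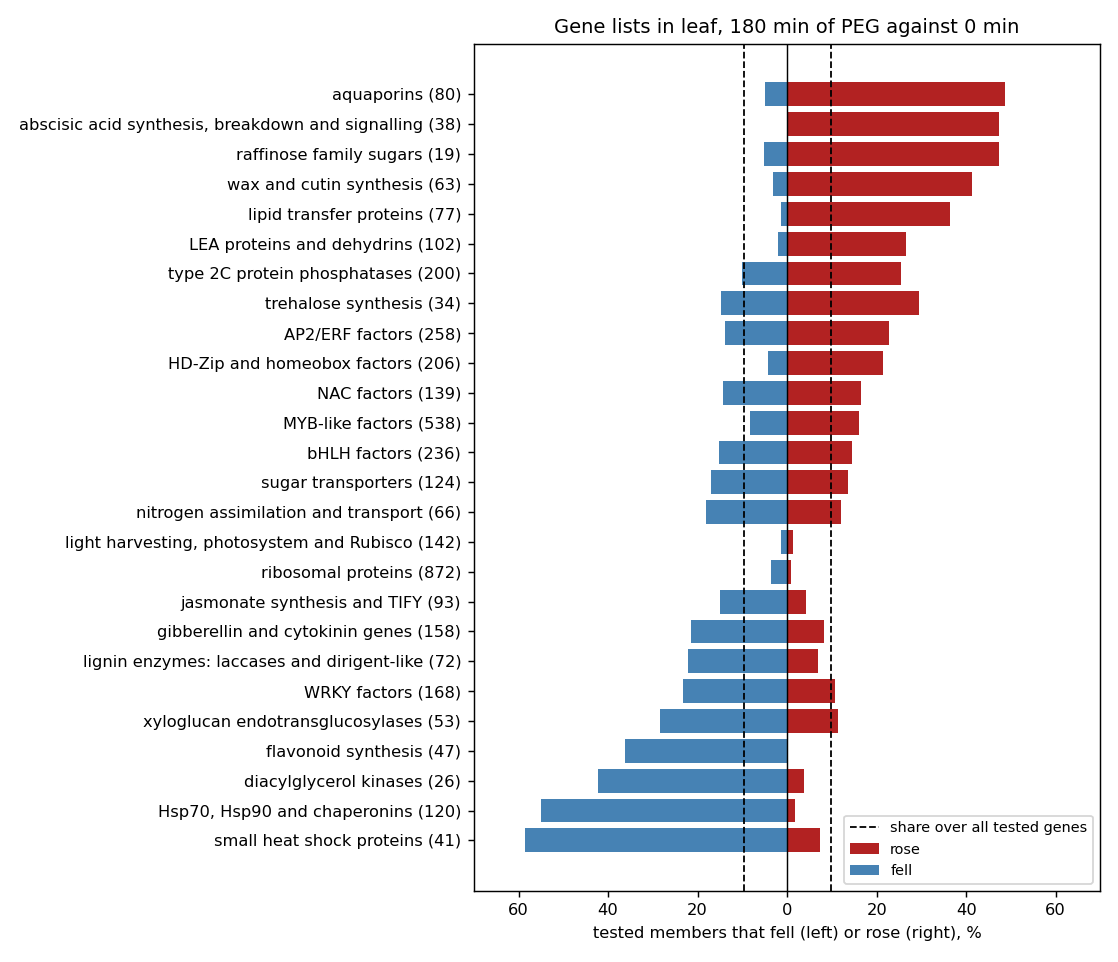
Share of the tested members of 26 gene lists that fell (blue, left) or rose (red, right) at 180 against 0 min, in percent, with the number tested in parentheses. Dashed lines mark 9.61% and 9.89%, the shares over all tested genes, and filter dependent genes are counted. The lists run from aquaporins, whose called genes mostly rose, to small heat shock proteins, whose called genes mostly fell.

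Genes of abscisic acid synthesis, breakdown and signalling rose where they were called: of 38 tested (73 in the table), 18 rose and 0 fell, with a median log2 change of 0.46, and 17 rose and 0 fell without replicate 3 at 0 min. Apart from filter dependent genes, 15 rose. The pair with the widest difference belongs to the carotenoid cleavage dioxygenases, described in the table as retinal pigment epithelial membrane protein, the family of the enzyme that limits abscisic acid synthesis. That description does not tell this enzyme from other members of the family. Gohir.A13G152200 (A13, 98795895 to 98798145) stood at 0.460, 0.336 and 0.172 FPKM at 0 min and 113, 126 and 92.8 FPKM at 180 min (change of 6.40 in log2, filter dependent). Its counterpart on D13, Gohir.D13G156600 (D13, 53557663 to 53559432), stood at 0.234, 0.0915 and 0.0626 FPKM at 0 min and 75.8, 96.5 and 102 FPKM at 180 min (change of 6.34 in log2, filter dependent). Both were near 0 in every library at 0 min and at 75.8 FPKM or higher in every library at 180 min. The means of Gohir.A13G152200 in between were 0.122, 0.201 and 0.774 FPKM at 10, 30 and 60 min, so the level was still low at 60 min. Another member of that family, Gohir.A01G041300 (A01, 3622136 to 3623929), chosen after its values were seen, rose from 23.9 ± 17.7 to 181 ± 22.1 FPKM (change of 3.09 in log2, SE 0.71, adjusted p = 0.00864).

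A gene described as an enzyme that breaks the hormone down rose. Gohir.A03G189000 (A03, 111222659 to 111227213), an abscisic acid 8'-hydroxylase, stood at 0.254, 0.442 and 0.483 FPKM at 0 min and 35.9, 22.7 and 13.9 FPKM at 180 min (change of 4.08 in log2, SE 0.28, adjusted p = 1.05e-06), with no overlap between the groups. The kinase gene Gohir.D08G182500 (D08, 57250055 to 57253077) is named SAPK3 after a rice kinase of the SnRK2 family, of which some members relay the hormone signal. Whether this kinase does so the description does not say. Its level rose from 2.06 ± 0.678 to 35.8 ± 6.51 FPKM (change of 3.60 in log2, SE 0.41, adjusted p = 6.64e-05). Gohir.A12G023700 (A12, 3248526 to 3253398), described as ABI5-like 6, of the bZIP factors that some SnRK2 kinases activate in Arabidopsis, rose from 18.2 ± 6.71 to 85.3 ± 9.60 FPKM (change of 2.22 in log2, SE 0.26, adjusted p = 7.01e-05). Both the kinase and the bZIP gene were chosen after their values were seen. Of 139 tested bZIP factors, 26 rose and 19 fell. 12 fell without 180 min replicate 2 or 3.

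Type 2C protein phosphatases, the family whose clade A members hold the abscisic acid pathway back when the hormone is absent, rose more often than they fell: of 200 tested, 51 rose and 20 fell, with a median log2 change of 0.07, and 48 rose and 14 fell without replicate 3 at 0 min. Of the 51 risers, 44 were not filter dependent. The descriptions do not tell the clades apart. Gohir.D08G266600 (D08, 68742372 to 68745447) stood at 1.61, 2.23 and 3.15 FPKM at 0 min and 28.3, 21.02 and 31.2 FPKM at 180 min (change of 3.07 in log2, SE 0.19, adjusted p = 5.56e-07), each library at 180 min above each at 0 min. Gohir.A08G245600 (A08, 126785473 to 126788626) rose from 1.16 ± 0.466 to 19.7 ± 3.06 FPKM (change of 3.27 in log2, SE 0.21, adjusted p = 6.39e-07). A steeper pair on A05 and D05, chosen after the values were seen, was Gohir.A05G092800 (A05, 8820716 to 8823217), from 2.38 ± 2.30 to 55.9 ± 13.1 FPKM (change of 4.28 in log2, SE 0.42, adjusted p = 1.86e-05), and Gohir.D05G093600 (D05, 7677254 to 7679829), from 5.41 ± 5.76 to 88.97 ± 15.5 FPKM (change of 4.17 in log2, SE 0.49, adjusted p = 7.50e-05). The largest fall in this family was in Gohir.A04G102800 (A04, 81419911 to 81422520), which went from 49.7 ± 25.8 to 5.15 ± 1.44 FPKM (change of -2.95 in log2, SE 0.42, adjusted p = 3.47e-04).

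With filter dependent genes counted, water channels showed the highest share of rising genes among the lists plotted. Of 80 tested aquaporins (116 in the table), 39 rose and 4 fell, with a median log2 change of 0.87. Without replicate 3 at 0 min, 38 rose and 4 fell. Apart from filter dependent genes, 33 aquaporins rose, and no rank is given for that number. Their summed level went from 1664 to 3248 FPKM in the 0 min libraries to 5401 to 7284 FPKM at 180 min. Gohir.D09G145700 (D09, 45202073 to 45203449) stood at 1.02, 0.267 and 1.37 FPKM at 0 min and 75.4, 95.5 and 126 FPKM at 180 min (change of 5.74 in log2, SE 0.40, adjusted p = 1.39e-06). Gohir.D04G113366 (D04, 42608883 to 42610420) stood at 18.1, 15.1 and 28.6 FPKM at 0 min and 946, 794 and 434 FPKM at 180 min (change of 5.05 in log2, SE 0.33, adjusted p = 7.18e-07), with the treated libraries far above the untreated ones. A plasma membrane channel of the PIP2-2 type, Gohir.A01G215200 (A01, 117975110 to 117976614), chosen after its values were seen, rose from 8.64 ± 5.09 to 429 ± 86.8 FPKM (change of 5.58 in log2, SE 0.47, adjusted p = 6.11e-06). The rise was not general. Gohir.D08G201700 (D08, 61197917 to 61200273), the faller with the highest level in FPKM, stood at 447, 586 and 378 FPKM at 0 min and 86.4, 136 and 173 FPKM at 180 min (change of -1.86 in log2, SE 0.35, adjusted p = 0.00238), with every treated library below every untreated one. Gohir.A04G010500 (A04, 1277325 to 1279927), of the small basic SIP2-1 type, fell from 6.57 ± 0.463 to 2.96 ± 0.708 FPKM (change of -0.95 in log2, SE 0.18, adjusted p = 0.00233).

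Among late embryogenesis abundant (LEA) proteins and dehydrins, hydrophilic proteins that protect membranes and enzymes in drying cells, 27 of 102 tested rose and 2 fell (median log2 change 0.07, 27 rose and 2 fell without replicate 3 at 0 min). Leaving out 0 min replicate 1 or 180 min replicate 1 or 2 gave 1 to 5 that fell. Apart from filter dependent genes, 23 rose. The dehydrin Gohir.A01G107800 (A01, 20619138 to 20620273) stood at 24.4, 19.9 and 16.7 FPKM at 0 min and 1465, 1236 and 1129 FPKM at 180 min (change of 5.91 in log2, SE 0.45, adjusted p = 2.45e-06). Its means passed through 146, 392 and 541 FPKM at 10, 30 and 60 min, so this gene climbed from the first sampling. The dehydrin on D01, Gohir.D01G094300 (D01, 16641693 to 16642812), rose from 6.26 ± 3.78 to 350.5 ± 19.6 FPKM (change of 5.73 in log2, SE 0.51, adjusted p = 8.57e-06). Gohir.D12G259100 (D12, 61550234 to 61552474), with repeats of the spinach cold acclimation protein CAP160, had 0 reads in all 3 libraries at 0 min and mean levels of 0 FPKM at 10, 30 and 60 min. At 180 min it stood at 7.86, 8.07 and 8.36 FPKM (316, 303 and 308 reads), at least 97.2-fold above the level of 3 reads in a 0 min library. It is filter dependent, and no test is given. Gohir.D12G011200 (D12, 1355632 to 1356739), a homolog of the translocator protein, in Arabidopsis a stress-induced membrane protein that is removed by autophagy, stood at 1.12, 0.634 and 1.05 FPKM at 0 min and 101, 117 and 107 FPKM at 180 min (change of 5.83 in log2, SE 0.37, adjusted p = 6.49e-07).

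Enzymes of protective sugars rose more often than they fell. The raffinose family list, for sugars built by adding galactose to sucrose, had 19 tested members, of which 9 rose and 1 fell, with a median log2 change of 0.51. The number that fell was 0 without 180 min replicate 1 or 2. Of the risers, 8 were not filter dependent. Stachyose synthase Gohir.D12G127100 (D12, 43460643 to 43464171) rose from 1.02 ± 0.343 to 24.9 ± 8.32 FPKM (change of 3.65 in log2, SE 0.24, adjusted p = 7.99e-07). A galactinol-sucrose galactosyltransferase, Gohir.A05G357500 (A05, 99070915 to 99074399), chosen after its values were seen, stood at 16.8, 14.3 and 55.6 FPKM at 0 min and 364, 279 and 267 FPKM at 180 min (change of 3.60 in log2, SE 0.58, adjusted p = 8.87e-04). Replicate 3 at 0 min was the highest of its group there, and still lay below every treated library. Family 8 glycosyltransferases include the galactinol synthases that supply the galactose, but also other enzymes, and of 83 tested members of that wider list 15 rose and 9 fell. On leaving out 180 min replicate 1 or 2, 4 to 5 fell. Of the risers, 12 were not filter dependent. Gohir.A13G113200 (A13, 80393426 to 80394939) stood at 4.002, 3.87 and 16.7 FPKM at 0 min and 650.5, 503 and 526 FPKM at 180 min (change of 6.21 in log2, SE 0.53, adjusted p = 6.89e-06), and at means of 5.58, 5.38 and 10.9 FPKM at 10, 30 and 60 min. Gohir.A13G176700 (A13, 104958275 to 104959866) went from 0.292 ± 0.199 to 80.4 ± 22.7 FPKM (change of 5.95 in log2, filter dependent), and Gohir.D13G183200 (D13, 58395887 to 58397437) on D13 from 0.549 ± 0.854 to 48.8 ± 15.6 FPKM (change of 5.09 in log2, filter dependent). Which of these family 8 genes are galactinol synthases the descriptions do not say.

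Trehalose genes split. Of 34 tested, 10 rose and 5 fell. 5 rose once 180 min replicate 1 or 2 was left out, and 2 to 3 fell once 0 min replicate 1, 2 or 3 or 180 min replicate 1, 2 or 3 was left out. Of the risers, 7 were not filter dependent. Trehalose-phosphate phosphatase, which removes the phosphate of the sugar signal trehalose 6-phosphate, had higher and lower genes: Gohir.A12G251200 (A12, 106880745 to 106888311) went from 0.324 ± 0.517 to 7.68 ± 0.578 FPKM (change of 2.78 in log2, filter dependent), while Gohir.D12G201700 (D12, 55705514 to 55711423) fell from 17.03 ± 2.07 to 2.38 ± 0.685 FPKM (change of -2.43 in log2, SE 0.48, adjusted p = 0.00314). Sugar transporters also went both ways, with 17 of 124 rising and 21 falling. Without 0 min replicate 2 or 180 min replicate 1, 2 or 3, 11 to 13 fell. The largest of the rises was Gohir.D08G091800 (D08, 16830856 to 16834919), at 13.4, 14.4 and 33.3 FPKM at 0 min and 288, 354 and 438 FPKM at 180 min (change of 4.18 in log2, SE 0.40, adjusted p = 1.53e-05), with no overlap. Starch genes had 5 of 80 rising and 15 falling. 6 to 9 fell without 0 min replicate 1 or 2 or 180 min replicate 1 or 2. Of 8 tested proline genes, 0 rose and 1 fell. Leaving out 0 min replicate 2 or 180 min replicate 1, 2 or 3 gave 0 to 2 that fell.

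**Figure D3:**
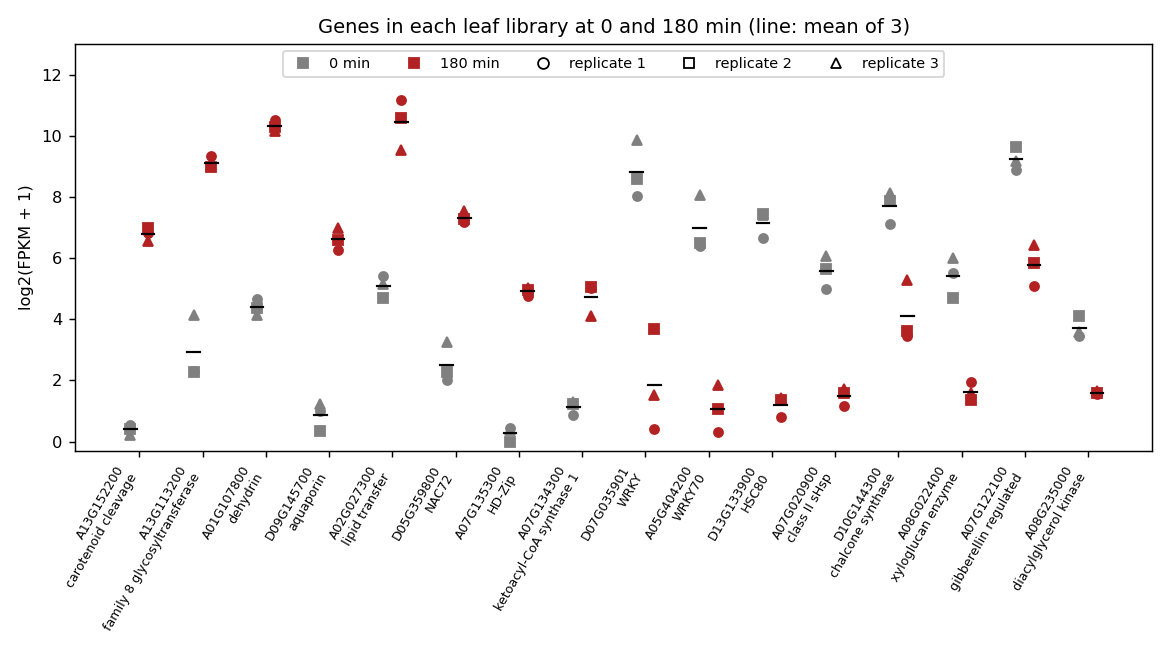
Level of 16 named genes in each leaf library, as log2(FPKM + 1), at 0 min (grey) and 180 min (red), with the symbol giving the replicate and the line the mean of 3. The 2 groups do not overlap in any of the 16 genes, which was a condition of choice for those named by largest change. The spread within a group is widest in the WRKY gene Gohir.D07G035901 at 180 min.

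Cuticle genes rose more often than they fell. Of 63 tested wax and cutin genes (108 in the table), 26 rose and 2 fell, with a median log2 change of 0.55, and 21 rose and 3 fell without replicate 3 at 0 min. Of the risers, 25 were not filter dependent. The summed level of the list went from 891 to 1179.6 FPKM to 2252 to 2968 FPKM. Ketoacyl-CoA synthases lengthen fatty acids for surface waxes: Gohir.A07G134300 (A07, 29362047 to 29363642), described as ketoacyl-CoA synthase 1, stood at 0.812, 1.35 and 1.46 FPKM at 0 min and 31.8, 32.6 and 16.1 FPKM at 180 min (change of 3.60 in log2, SE 0.30, adjusted p = 4.81e-06). Gohir.D07G138900 (D07, 22107857 to 22109452), of the same enzyme family on D07, rose from 2.10 ± 0.437 to 42.7 ± 8.72 FPKM (change of 3.81 in log2, SE 0.29, adjusted p = 2.67e-06). Gohir.A05G333900 (A05, 81925772 to 81929768), with the WAX2 domain of the enzymes that make wax alkanes, and Gohir.A03G146400 (A03, 102160345 to 102162649), ketoacyl-CoA synthase 6, were chosen after their values were seen. The former rose from 18.3 ± 15.3 to 225 ± 11.6 FPKM (change of 3.86 in log2, SE 0.49, adjusted p = 1.44e-04) and the latter from 24.8 ± 8.12 to 146 ± 22.3 FPKM (change of 2.55 in log2, SE 0.24, adjusted p = 1.07e-05). Of the falling ketoacyl-CoA synthases, Gohir.A05G019700 (A05, 2033018 to 2036264) went from 42.4 ± 26.6 to 9.06 ± 5.999 FPKM (change of -2.11 in log2, SE 0.42, adjusted p = 0.00331).

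Lipid transfer proteins, small secreted carriers of cuticle lipids, moved with them: of 77 tested (191 in the table), 28 rose and 1 fell, with a median log2 change of 0.65, and 27 rose and 2 fell without replicate 3 at 0 min. Of the risers, 24 were not filter dependent. Summed levels were 2991 to 3870.1 FPKM at 0 min and 9231 to 11872 FPKM at 180 min. Gohir.A02G027300 (A02, 3458743 to 3459571), non-specific lipid-transfer protein 1, stood at 41.9, 24.8 and 34.5 FPKM at 0 min and 2295, 1538 and 748 FPKM at 180 min (change of 5.35 in log2, SE 0.52, adjusted p = 1.66e-05). Gohir.D01G136000 (D01, 42728759 to 42730729) had 0 reads in all 3 libraries at 0 min and stood at 11.8, 17.1 and 29.96 FPKM at 180 min, at least 84.7-fold above the level of 3 reads, again filter dependent. The riser with the highest level in FPKM, Gohir.D10G116300 (D10, 19209532 to 19210247), stood at 806, 658 and 1145 FPKM at 0 min and 3009, 2336 and 2553 FPKM at 180 min (change of 1.63 in log2, SE 0.45, adjusted p = 0.0222). Its adjusted p rose above 0.05 on leaving out any one of 5 of the 6 libraries, the exception being replicate 3 at 0 min, and reached up to 0.0838.

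Transcription factor families went both ways, gene by gene. Of 206 tested HD-Zip and other homeobox factors, 44 rose and 9 fell (median log2 change 0.05). The number that rose was 24 without 180 min replicate 1 or 2, and the number that fell was 4 to 5 without 0 min replicate 1 or 2 or 180 min replicate 1 or 2. Of the risers, 34 were not filter dependent. Gohir.A07G135300 (A07, 29835830 to 29837242) stood at 0.353, 0 and 0.293 FPKM at 0 min and 25.8, 30.1 and 31.6 FPKM at 180 min (change of 4.64 in log2, filter dependent), from nearly no reads. Gohir.A12G114800 (A12, 82038709 to 82039856) went from 0.277 ± 0.479 to 28.3 ± 6.08 FPKM (change of 4.56 in log2, filter dependent). Gohir.A11G099600 (A11, 10190871 to 10192523) and Gohir.D11G104100 (D11, 9396763 to 9398439), named ATHB-12 after an Arabidopsis factor that responds to abscisic acid and water deficit, were chosen after their values were seen. The former went from 0.345 ± 0.485 to 36.5 ± 12.6 FPKM (change of 4.81 in log2, filter dependent) and the latter rose from 1.86 ± 2.57 to 75.9 ± 7.52 FPKM (change of 5.11 in log2, SE 0.47, adjusted p = 1.06e-05).

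NAC factors gave 23 that rose and 20 that fell of 139. On leaving out 0 min replicate 3 or 180 min replicate 2, 13 fell. NAC72 is known in Arabidopsis as a dehydration-responsive activator, and Gohir.D05G359800 (D05, 61228194 to 61230136) of that name stood at 3.01, 3.90 and 8.54 FPKM at 0 min and 143, 155 and 184 FPKM at 180 min (change of 4.81 in log2, SE 0.45, adjusted p = 1.29e-05). Gohir.A04G031200 (A04, 5657919 to 5664005) rose from 1.73 ± 1.24 to 42.1 ± 3.94 FPKM (change of 4.07 in log2, SE 0.39, adjusted p = 1.58e-05). In the other direction, Gohir.D11G106932 (D11, 9849729 to 9852127), described as NAC45, stood at 82.2, 105 and 142 FPKM at 0 min and 2.31, 2.45 and 6.76 FPKM at 180 min (change of -4.60 in log2, SE 0.42, adjusted p = 1.01e-05), and all treated libraries lay below the untreated ones. AP2/ERF factors, which include the dehydration-responsive DREB and the ethylene-responsive factors, had 59 of 258 rising and 36 falling. 23 fell once 180 min replicate 1 was left out. Of the risers, 50 were not filter dependent. Gohir.A12G193600 (A12, 100713554 to 100715388) had 0 reads in all 3 libraries at 0 min and 9.86, 9.36 and 8.10 FPKM at 180 min, at least 65.9-fold above the level of 3 reads, also filter dependent.

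MYB-like factors had 86 of 538 rising and 45 falling. Without 0 min replicate 2 or 180 min replicate 1, 26 to 29 fell. Of the risers, 74 were not filter dependent. Gohir.D11G106400 (D11, 9777566 to 9783506) rose from 0.766 ± 0.588 to 34.8 ± 4.65 FPKM (change of 4.38 in log2, SE 0.23, adjusted p = 1.06e-07) and Gohir.D08G062000 (D08, 6804076 to 6805912) from 1.65 ± 0.457 to 33.2 ± 3.62 FPKM (change of 3.70 in log2, SE 0.18, adjusted p = 9.53e-08). Of 236 bHLH factors, 34 rose (14.4%) and 36 fell (15.3%). Apart from filter dependent genes, 26 of them rose and 35 fell. C2H2 zinc fingers gave 5 (9.62%) and 7 (13.5%) of 52, against 9.89% and 9.61% of all tested genes. 8 rose without 0 min replicate 3, and 2 to 4 fell without 0 min replicate 1 or 3 or 180 min replicate 1, 2 or 3. Gohir.D12G020300 (D12, 2544994 to 2545695), of that family, rose from 2.26 ± 2.43 to 50.5 ± 9.42 FPKM (change of 4.21 in log2, SE 0.48, adjusted p = 5.76e-05). A U-box ubiquitin ligase, which marks proteins for breakdown, Gohir.A12G273300 (A12, 109101567 to 109105041), rose from 1.93 ± 1.87 to 42.4 ± 3.19 FPKM (change of 4.08 in log2, SE 0.36, adjusted p = 7.55e-06), with means of 0.132, 0.150 and 1.10 FPKM at 10, 30 and 60 min, so it first stood lower and then higher than at 0 min. Over the 451 U-box and F-box genes, 56 rose (12.4%) and 51 fell (11.3%), near the 9.89% and 9.61% over all tested genes. Leaving out 180 min replicate 2 gave 33 that fell.

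WRKY factors, regulators of defence and senescence, fell more often than they rose. Of 168 tested (239 in the table), 18 rose and 39 fell, with a median log2 change of -0.28, and 16 rose and 29 fell without replicate 3 at 0 min. Their summed level went from 3129 to 8458 FPKM at 0 min, highest in replicate 3, to 1483 to 1869.7 FPKM at 180 min. The largest fall of any described gene whose libraries did not overlap was in Gohir.D07G035901 (D07, 3876361 to 3877865), at 259, 384 and 919.6 FPKM at 0 min and 0.318, 11.7 and 1.87 FPKM at 180 min (change of -6.96 in log2, SE 0.66, adjusted p = 1.49e-05). Its means in between were 391, 217 and 76.2 FPKM at 10, 30 and 60 min. Gohir.D07G035800 (D07, 3855621 to 3857161), described as WRKY18 and lying near it on the same strand of D07, fell from 256 ± 179.8 to 2.65 ± 3.06 FPKM (change of -6.22 in log2, SE 0.56, adjusted p = 9.40e-06). On A07, Gohir.A07G032533 (A07, 4058409 to 4060036) and Gohir.A07G032600 (A07, 4094328 to 4100728) also lie close together, and fell from 149 ± 113 to 1.34 ± 0.699 FPKM (change of -5.80 in log2, SE 0.46, adjusted p = 3.68e-06) and from 319 ± 238 to 4.07 ± 5.55 FPKM (change of -6.30 in log2, SE 0.64, adjusted p = 2.54e-05). Gohir.A05G404200 (A05, 109632849 to 109634207), described as WRKY70, in Arabidopsis a regulator of salicylic acid defence, stood at 82.4, 90.04 and 264 FPKM at 0 min and 0.251, 1.08 and 2.60 FPKM at 180 min (change of -5.91 in log2, SE 0.49, adjusted p = 5.11e-06). The largest rise among WRKY genes was in Gohir.D12G127000 (D12, 43422358 to 43424128), which went from 1.34 ± 0.291 to 21.6 ± 5.65 FPKM (change of 3.25 in log2, SE 0.38, adjusted p = 7.42e-05).

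Other genes with large falls follow. Gohir.D10G221600 (D10, 62619853 to 62621880) has ankyrin repeats, which many proteins use to bind others. It stood at 62.8, 124 and 458 FPKM at 0 min and 0.204, 5.10 and 1.92 FPKM at 180 min (change of -5.80 in log2, SE 0.74, adjusted p = 1.57e-04). Chitinase Gohir.D01G163900 (D01, 56525258 to 56526713), of the class that cleaves fungal walls, fell from 175 ± 73.97 to 13.9 ± 6.18 FPKM (change of -3.55 in log2, SE 0.46, adjusted p = 1.68e-04). Jasmonate synthesis and TIFY genes had 4 of 93 rising and 14 falling (median log2 change -0.35). The number that rose was 1 to 2 without 0 min replicate 2 or 180 min replicate 2 or 3, and the number that fell was 9 without 180 min replicate 1. The lipoxygenase Gohir.D10G056600 (D10, 5411877 to 5416372), of the family that starts jasmonate synthesis, stood at 49.3, 38.00 and 127 FPKM at 0 min and 5.69, 4.05 and 7.16 FPKM at 180 min (change of -3.28 in log2, SE 0.51, adjusted p = 6.39e-04). A second lipoxygenase, Gohir.A09G215000 (A09, 82355995 to 82359632), fell from 14.1 ± 6.18 to 1.90 ± 0.323 FPKM (change of -2.29 in log2, SE 0.34, adjusted p = 5.24e-04), and its means of 14.2, 15.02 and 13.4 FPKM at 10, 30 and 60 min stayed near the 0 min level up to 60 min. Over 128 thaumatin, chitinase and Bet v I genes, 11 rose and 13 fell, near the shares over all genes.

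Molecular chaperones had the highest shares of falling genes among the lists plotted. Of 120 tested Hsp70, Hsp90 and chaperonin genes, which fold other proteins, 2 rose and 66 fell, with a median log2 change of -0.77, and 1 rose and 56 fell without replicate 3 at 0 min. On leaving out 0 min replicate 1, 2 or 3 or 180 min replicate 1 or 3, 1 rose. Their summed level fell from 5448 to 7248 FPKM to 2049 to 2120.2 FPKM. The Hsp90 gene Gohir.D13G133900 (D13, 47229546 to 47232641), described as heat shock cognate protein 80, stood at 98.9, 172 and 168 FPKM at 0 min and 0.756, 1.60 and 1.67 FPKM at 180 min (change of -5.96 in log2, SE 0.38, adjusted p = 6.49e-07), with means of 73.7, 17.4 and 2.62 FPKM at 10, 30 and 60 min. Gohir.A13G130500 (A13, 91736542 to 91739943), the Hsp90 on A13, fell from 175 ± 53.4 to 3.79 ± 1.01 FPKM (change of -5.17 in log2, SE 0.40, adjusted p = 2.86e-06). Gohir.A12G254100 (A12, 107301251 to 107304663), a further Hsp90 chosen after its values were seen, fell from 54.3 ± 33.5 to 0.544 ± 0.421 FPKM (change of -5.01 in log2, SE 0.58, adjusted p = 7.47e-05). The faller with the highest level in FPKM was the Hsp70 gene Gohir.D06G173000 (D06, 60529905 to 60532410), at 583, 857 and 946 FPKM at 0 min and 222, 199 and 186 FPKM at 180 min (change of -1.94 in log2, SE 0.48, adjusted p = 0.0119).

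Small heat shock proteins, which hold unfolded proteins in solution, followed: of 41 tested, 3 rose and 24 fell, with a median log2 change of -1.39, and 1 rose and 18 fell without replicate 3 at 0 min. 1 rose once 0 min replicate 3 or 180 min replicate 2 was left out. Apart from filter dependent genes, 2 rose and 21 fell. Gohir.A07G020900 (A07, 2364544 to 2365020), a class II protein, stood at 30.7, 49.1 and 65.8 FPKM at 0 min and 1.25, 2.003 and 2.27 FPKM at 180 min (change of -4.08 in log2, SE 0.36, adjusted p = 8.11e-06). Gohir.A03G037000 (A03, 7355284 to 7356608), a class I protein, fell from 36.4 ± 7.20 to 2.04 ± 0.720 FPKM (change of -3.63 in log2, SE 0.31, adjusted p = 6.56e-06). The heat shock factors that switch such genes on were divided, with 10 of 72 rising and 12 falling. Without 180 min replicate 3, 6 rose, and without 0 min replicate 2 or 3 or 180 min replicate 1, 2 or 3, 6 to 7 fell. Of the risers, 7 were not filter dependent. Gohir.D05G032100 (D05, 2713535 to 2715414) went from 0.426 ± 0.111 to 23.9 ± 6.29 FPKM (change of 4.10 in log2, filter dependent), and Gohir.A05G030700 (A05, 3110903 to 3112796) from 0.0108 ± 0.0187 to 6.48 ± 0.933 FPKM (change of 2.88 in log2, filter dependent). Gohir.A13G187500 (A13, 106459152 to 106461219) stood at 17.01, 29.5 and 30.5 FPKM at 0 min and 0.359, 0.502 and 0.572 FPKM at 180 min (change of -4.13 in log2, SE 0.55, adjusted p = 2.18e-04), all below the 0 min libraries.

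**Figure D4:**
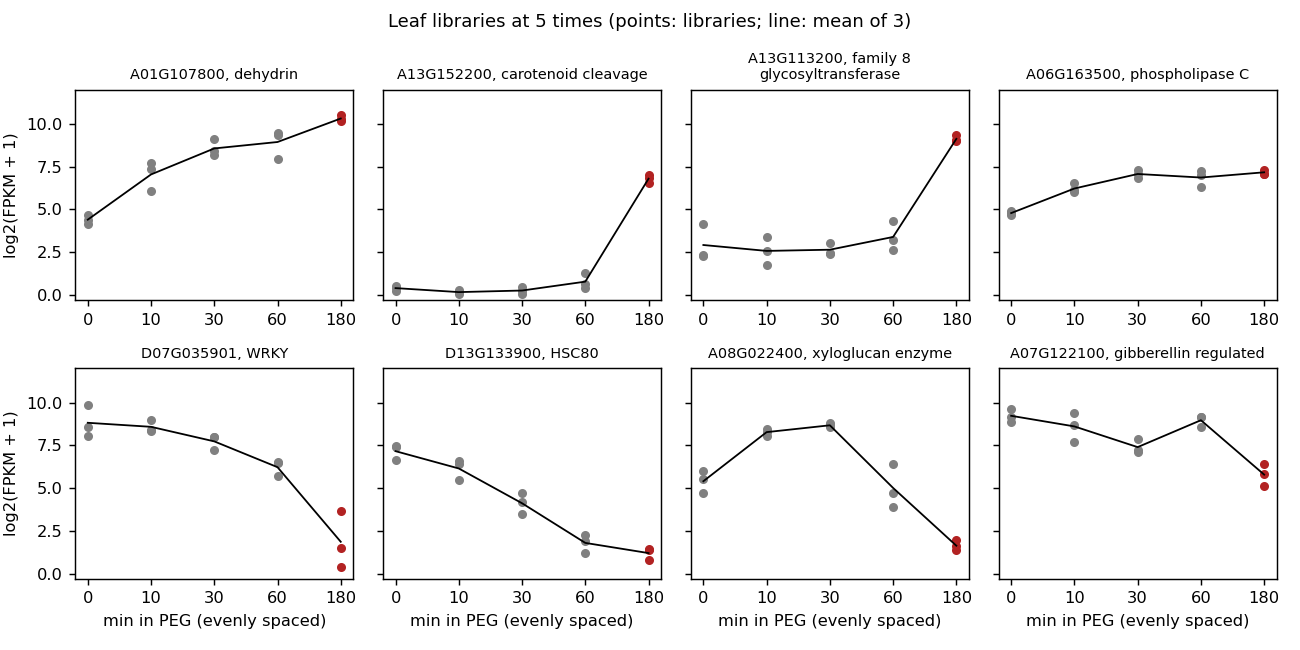
Level of 8 named genes in the leaf libraries at 0, 10, 30, 60 and 180 min, as log2(FPKM + 1), with points for libraries (red at 180 min) and a line through the means of 3. The dehydrin and the phospholipase C gene climb from 10 min on, the carotenoid cleavage and family 8 glycosyltransferase genes stay low until 60 min, and the xyloglucan gene rises to a mean of 408 FPKM at 30 min before it falls to 2.15 FPKM.

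Flavonoids are pigments, screens against ultraviolet light and antioxidants, and no gene of their synthesis list rose. Of 47 tested genes (94 in the table), 0 rose and 17 fell, with a median log2 change of -0.78, and 0 rose and 16 fell without replicate 3 at 0 min. 1 rose without 180 min replicate 3. Their summed level fell from 1728 to 3054 FPKM to 351 to 711 FPKM. Among those named by their p-value were flavonol synthase Gohir.A01G217400 (A01, 118156581 to 118159490), which fell from 5.79 ± 3.13 to 0.409 ± 0.134 FPKM (change of -2.18 in log2, SE 0.34, adjusted p = 6.13e-04), and the chalcone glucosyltransferase Gohir.D07G226900 (D07, 57632862 to 57634280), from 5.65 ± 1.72 to 1.27 ± 0.581 FPKM (change of -1.55 in log2, SE 0.23, adjusted p = 5.01e-04). The abundant members were chosen after their values were seen. Chalcone synthase makes the first flavonoid skeleton, and Gohir.D10G144300 (D10, 30816792 to 30819276) of that family stood at 138, 233 and 278 FPKM at 0 min and 9.84, 11.4 and 37.6 FPKM at 180 min (change of -3.59 in log2, SE 0.61, adjusted p = 0.00121). Replicate 3 at 180 min was the highest of its group and still lay below every untreated library. Gohir.D02G031600 (D02, 4125677 to 4128687), chalcone synthase 1, fell from 299 ± 85.98 to 39.04 ± 22.4 FPKM (change of -3.0 in log2, SE 0.46, adjusted p = 6.23e-04). Gohir.A12G059400 (A12, 13922561 to 13924652), the flavanone 3-hydroxylase that follows, fell from 349 ± 132 to 38.9 ± 26.6 FPKM (change of -3.25 in log2, SE 0.61, adjusted p = 0.00252), and leucoanthocyanidin reductase Gohir.D12G173800 (D12, 51604692 to 51607796), which feeds tannin synthesis, from 449 ± 135 to 63.2 ± 31.6 FPKM (change of -2.87 in log2, SE 0.50, adjusted p = 0.00137).

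Enzymes of wall loosening were called in both directions. Xyloglucan endotransglucosylases, which cut and rejoin wall xyloglucan, had 6 of 53 rising and 15 falling (median log2 change -0.68). Leaving out 0 min replicate 2 or 180 min replicate 1 or 2 gave 3 that rose. Gohir.A08G022400 (A08, 2808068 to 2809310) stood at 44.6, 25.00 and 62.9 FPKM at 0 min and 2.85, 1.58 and 2.01 FPKM at 180 min (change of -3.77 in log2, SE 0.49, adjusted p = 1.65e-04), after means of 310.3, 408 and 41.1 FPKM at 10, 30 and 60 min. The level therefore lay above the start at 10 and 30 min and below it at 180 min. Gohir.D01G163700 (D01, 56446747 to 56448314), expansin-like A2, had the same course, with 241, 402 and 33.5 FPKM at 10, 30 and 60 min, and went from 29.3 ± 8.27 to 2.77 ± 1.93 FPKM overall (change of -3.09 in log2, SE 0.47, adjusted p = 5.78e-04). Of 62 tested expansins, which loosen walls in growth, 4 rose and 8 fell. The number that fell was 5 without 0 min replicate 2 or 180 min replicate 2 or 3. Of 61 cellulose synthase genes, 5 rose and 11 fell. On leaving out 0 min replicate 1 or 180 min replicate 1, 2 rose. Gohir.D11G245700 (D11, 52895755 to 52901265), of that family, fell from 16.00 ± 5.83 to 2.21 ± 0.413 FPKM (change of -2.35 in log2, SE 0.23, adjusted p = 1.73e-05). Laccase and dirigent-like genes, which serve lignin and lignan formation, had 5 of 72 rising and 16 falling. 2 rose once 0 min replicate 2 or 3 or 180 min replicate 3 was left out, and 10 fell once 180 min replicate 1 or 2 was left out.

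Gibberellin and cytokinin genes, for hormones of growth, fell more often than they rose, with 13 and 34 of 158 (median log2 change -0.38). Without 180 min replicate 1 or 2, 6 to 8 rose, and without 0 min replicate 2 or 3 or 180 min replicate 1 or 2, 15 to 20 fell. The gibberellin regulated protein gene Gohir.A07G122100 (A07, 24645068 to 24646420) stood at 466, 800.1 and 575 FPKM at 0 min and 33.2, 56.3 and 85.2 FPKM at 180 min (change of -3.44 in log2, SE 0.43, adjusted p = 1.28e-04). Gibberellin 2-beta-dioxygenase inactivates the hormone, and Gohir.A13G152000 (A13, 98631509 to 98633373) of that name, chosen after its values were seen, rose from 1.45 ± 0.794 to 40.2 ± 10.7 FPKM (change of 4.08 in log2, SE 0.45, adjusted p = 4.90e-05). Gohir.D05G104200 (D05, 8773458 to 8777320), which releases active cytokinin, rose from 13.2 ± 2.24 to 90.1 ± 19.3 FPKM (change of 2.68 in log2, SE 0.26, adjusted p = 1.63e-05). In ethylene synthesis Gohir.A08G168100 (A08, 114594510 to 114597627), an oxidase of the last step, rose from 2.75 ± 0.193 to 31.7 ± 8.30 FPKM (change of 3.10 in log2, SE 0.24, adjusted p = 2.92e-06), among 9 that rose and 3 that fell of 40. Of 113 cyclins, 5 rose and 9 fell. 2 to 3 rose without 0 min replicate 2 or 3 or 180 min replicate 1, and 2 to 4 fell without 0 min replicate 2 or 180 min replicate 1 or 2. Of 153 core histones, 2 rose and 4 fell. Leaving out 0 min replicate 2 or 180 min replicate 1, 2 or 3 gave 0 to 1 that rose, and leaving out 0 min replicate 1 or 2 or 180 min replicate 1 or 2 gave 0 to 1 that fell. Those are shares below the ones over all genes. The summed level of core histones, which mark dividing cells, was 3147 to 10439 FPKM at 0 min, highest in replicate 1, and 2262 to 5063 FPKM at 180 min, so the groups overlapped, and its part in the results was not tested.

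In phosphoinositide signalling, phospholipases C and D rose in 8 of 35 tested genes and fell in 3. Their median log2 change was -0.07, with 16 of 35 above 0, so the rise was not general. Their summed level went from 558 to 721 FPKM to 1309.5 to 1662 FPKM. The mean sum went from 639 to 1500 FPKM, of which Gohir.D10G076900 alone added 383 FPKM. The number that rose was 5 without 0 min replicate 1 or 180 min replicate 1 or 2. Phospholipase C Gohir.A06G163500 (A06, 120879209 to 120883115) stood at 28.8, 26.6 and 24.4 FPKM at 0 min and 158, 136 and 135 FPKM at 180 min (change of 2.38 in log2, SE 0.24, adjusted p = 2.04e-05), after means of 74.6, 135 and 119.6 FPKM at 10, 30 and 60 min, so most of the climb was past by 30 min. Gohir.D06G169800 (D06, 60002057 to 60005978), phosphoinositide phospholipase C 2, rose from 36.04 ± 10.01 to 127 ± 11.4 FPKM (change of 1.82 in log2, SE 0.28, adjusted p = 6.55e-04). Phospholipase D makes phosphatidic acid straight from membrane lipid, and Gohir.D10G076900 (D10, 9084008 to 9089138), chosen after its values were seen, rose from 168 ± 39.04 to 551 ± 114 FPKM (change of 1.71 in log2, SE 0.39, adjusted p = 0.00779), while Gohir.D08G196000 (D08, 60187640 to 60191897) fell from 14.6 ± 3.35 to 2.34 ± 0.590 FPKM (change of -2.22 in log2, SE 0.35, adjusted p = 7.37e-04). The kinases that make the phospholipase C substrate, the phosphatidylinositol 4-phosphate 5-kinases, had 3 of 23 rising and 0 falling. The median log2 change of these kinases was -0.17, with 8 of 23 above 0, so they did not rise as a group. Gohir.A01G212200 (A01, 117643107 to 117650096), kinase 9 of that group, rose from 12.4 ± 1.37 to 35.5 ± 6.70 FPKM (change of 1.43 in log2, SE 0.20, adjusted p = 3.43e-04).

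Diacylglycerol kinases (a list that also holds sphingosine kinase 1, of the same enzyme fold) fell more often than they rose. Of 26 tested (30 in the table), 1 rose and 11 fell, with a median log2 change of -0.40. On leaving out 180 min replicate 1, 2 or 3, 0 rose, and on leaving out 0 min replicate 2 or 3 or 180 min replicate 1, 2 or 3, 5 to 7 fell. Gohir.A08G235000 (A08, 125861374 to 125867441) stood at 9.84, 16.3 and 10.9 FPKM at 0 min and 1.93, 2.01 and 2.14 FPKM at 180 min (change of -2.11 in log2, SE 0.30, adjusted p = 3.31e-04). Gohir.A01G069500 (A01, 8917227 to 8924469) fell from 21.7 ± 2.58 to 5.85 ± 0.914 FPKM (change of -1.73 in log2, SE 0.34, adjusted p = 0.00311). The single riser, Gohir.D12G184100 (D12, 53311333 to 53319403), which was filter dependent, stood at 0.366, 0.191 and 0.224 FPKM at 0 min and 6.64, 7.04 and 6.48 FPKM at 180 min (change of 2.62 in log2, filter dependent), so it was nearly silent before. Of 58 inositol and inositol phosphate enzymes 3 rose and 14 fell, and the larger falls included the inositol monophosphatase gene Gohir.A03G196800 (A03, 112022904 to 112025967), from 5.85 ± 0.769 to 2.35 ± 0.960 FPKM (change of -1.06 in log2, SE 0.21, adjusted p = 0.00303). 5 to 9 fell once 0 min replicate 1, 2 or 3 or 180 min replicate 1 or 2 was left out. Of 38 phosphatidylinositol 3- and 4-kinases, 3 rose and 5 fell. Without 0 min replicate 2 or 180 min replicate 1 or 2, 2 to 3 fell. Calcium-dependent and CBL-interacting kinases had 4 of 26 rising and 3 falling. Their median log2 change was 0.22, with 16 of 26 above 0, so they did not fall as a group. 1 to 2 rose without 180 min replicate 1, 2 or 3. The calcium-dependent kinase 6 gene Gohir.A03G170600 (A03, 108579145 to 108583831), a reader of calcium signals, fell from 70.98 ± 6.50 to 13.9 ± 2.49 FPKM (change of -2.29 in log2, SE 0.20, adjusted p = 8.41e-06).

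Photosynthesis genes showed few calls beside their level. Of 142 tested (297 in the table), 2 rose and 2 fell, with a median log2 change of -0.29. Their summed level was 29540.00 to 34501 FPKM in the libraries at 0 min and 20238 to 25486 FPKM at 180 min, so the groups did not overlap although few single genes passed the test. 0 to 5 fell without 0 min replicate 1, 2 or 3 or 180 min replicate 1 or 3. The Rubisco small subunit gene Gohir.D11G169700 (D11, 18616089 to 18617205) stood at 797, 962 and 1234 FPKM at 0 min and 381, 499 and 470.3 FPKM at 180 min (change of -1.13 in log2, SE 0.37, adjusted p = 0.0467), a call that was lost on leaving out any 1 of the 6 libraries, with an adjusted p of up to 0.144. Chlorophyll genes had 6 of 42 rising and 3 falling. Leaving out 0 min replicate 2 or 180 min replicate 1 gave 1 that fell. Staygreen proteins start chlorophyll breakdown, and 2 of their 5 tested genes passed the threshold upward, 1 of them filter dependent: Gohir.D03G154700 (D03, 52203227 to 52206164) stood at 0.672, 0.494 and 0.845 FPKM at 0 min and 3.40, 5.51 and 10.9 FPKM at 180 min (change of 2.07 in log2, SE 0.34, adjusted p = 9.40e-04), and Gohir.A03G013200 (A03, 2800566 to 2803470), chosen after its values were seen, went from 0.391 ± 0.315 to 6.47 ± 4.73 FPKM (change of 2.27 in log2, filter dependent). Pheophorbide a oxygenase Gohir.D07G109100 (D07, 14999334 to 15002772), which opens the chlorophyll ring, rose from 10.8 ± 2.35 to 31.5 ± 4.17 FPKM (change of 1.48 in log2, SE 0.23, adjusted p = 7.55e-04). A gene of the senescence regulator family, Gohir.A08G000060 (A08, 117150 to 117656), rose from 47.98 ± 7.18 to 285 ± 30.2 FPKM (change of 2.55 in log2, SE 0.16, adjusted p = 6.34e-07).

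Among clock and CCT motif genes, 16 of 91 rose and 12 fell. The B-box gene Gohir.D05G064900 (D05, 5181508 to 5183153) rose from 31.4 ± 11.7 to 100.5 ± 15.02 FPKM (change of 1.71 in log2, SE 0.25, adjusted p = 4.44e-04), and Gohir.D10G248000 (D10, 67302712 to 67303029), ELF4-like 1, of a family that holds back evening clock genes in Arabidopsis, fell from 13.97 ± 6.39 to 2.36 ± 0.185 FPKM (change of -2.08 in log2, SE 0.33, adjusted p = 7.64e-04). Nitrogen genes had 8 of 66 rising and 12 falling. The number that rose was 5 without 0 min replicate 1 or 180 min replicate 1 or 2, and the number that fell was 6 to 7 without 0 min replicate 2 or 180 min replicate 1, 2 or 3. Of the risers, 5 were not filter dependent. Asparagine synthase stores nitrogen as an amide, and 2 genes of that description were higher at 180 min: Gohir.A07G104800 (A07, 19063634 to 19067469) went from 0.228 ± 0.136 to 7.38 ± 2.42 FPKM (change of 2.73 in log2, filter dependent) and Gohir.A09G088900 (A09, 63731076 to 63735512) from 0.180 ± 0.128 to 10.4 ± 5.06 FPKM (change of 3.16 in log2, filter dependent). Another, Gohir.D09G088800 (D09, 36853609 to 36857857), chosen after its values were seen, rose from 1.21 ± 0.152 to 50.5 ± 31.6 FPKM (change of 4.25 in log2, SE 0.53, adjusted p = 1.22e-04). In root its mean went from 581 ± 220 to 193 ± 82.4 FPKM (leaf minus root, log2 difference 5.86, SE 0.82, adjusted p = 8.88e-07). The ammonium transporter Gohir.A02G044000 (A02, 6160555 to 6162011) stood at 87.8, 118 and 131 FPKM at 0 min and 46.6, 38.8 and 29.3 FPKM at 180 min (change of -1.54 in log2, SE 0.21, adjusted p = 2.84e-04).

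The 180 min libraries were also compared with those at 60 min. Between 60 and 180 min, 4781 genes (10.3%) differed, 2865 rising (6.19%) and 1916 falling (4.14%), and leaving out single libraries gave totals of 2770 to 3784, lowest without replicate 2 at 180 min. The totals without 60 min replicate 3 (3036), 180 min replicate 1 (3065) and 180 min replicate 3 (2814) were also lower by over 1.5 times. This contrast shares the 180 min libraries with the one above. The family 8 glycosyltransferase Gohir.A13G113200 rose in this interval (log2 difference 5.73, adjusted p = 2.41e-05), as did the lipid transfer protein Gohir.A02G027300 (log2 difference 3.59, adjusted p = 6.86e-04) and the water channel Gohir.D04G113366 (log2 difference 3.88, adjusted p = 9.52e-06). For phospholipase C Gohir.A06G163500 the same interval gave no call (log2 difference 0.31, adjusted p = 0.475), and for the dehydrin Gohir.A01G107800 the values were log2 difference 1.37, adjusted p = 0.0725. Of the genes that fell, WRKY gene Gohir.D07G035901 fell further after 60 min (log2 difference -4.36, adjusted p = 0.00101), while for the Hsp90 gene Gohir.D13G133900 most of the drop was past (log2 difference -0.60, adjusted p = 0.365).

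The same change was compared with that of root and stem in 1 fit of 45 libraries and 54622 genes. Against stem, 5930 genes (10.9%) changed differently, 2902 more upward in leaf (5.31%) and 3028 more downward (5.54%), and 2781 and 4092 after scaling by library totals. A fit of the 12 libraries of that contrast alone gave 1428 and 1104, and without replicate 2 of stem at 180 min 1998 changed more downward. Against root, the number was 18819 (34.5%), with 8796 (16.1%) and 10023 (18.3%). This split depends on the scaling, since division by the library's own total gave 15192 and 5498 and moved the median difference over all genes from -0.02 to 0.33. Chaperones split between the tissues: of 127 Hsp70, Hsp90 and chaperonin genes 5 changed more upward and 6 more downward in leaf than in stem, against 11 and 64 compared with root (25 and 49 under the own-total scaling). Small heat shock proteins gave 2 and 2 of 70 against stem, and 1 and 49 against root (4 and 45).

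Chaperone genes show this in single values. Gohir.D13G133900, which fell in leaf, went from 17.7 ± 12.8 to 210.4 ± 103 FPKM in root (leaf minus root, log2 difference -9.54, SE 0.58, adjusted p = 1.48e-14), and from 299 ± 71.9 to 2.83 ± 1.54 FPKM in stem. Gohir.A03G037000 went from 8.68 ± 2.48 to 318 ± 124 FPKM in root (log2 difference -8.62, SE 0.52, adjusted p = 1.48e-14). The means of both thus went up in root while they went down in leaf. A BAG domain gene, of the co-chaperone family, Gohir.D02G173100 (D02, 64182367 to 64183332), fell in leaf from 6.94 ± 2.69 to 1.25 ± 0.295 FPKM (change of -1.77 in log2, SE 0.28, adjusted p = 7.04e-04) and went from 1.38 ± 0.889 to 479 ± 247 FPKM in root (log2 difference -9.35, SE 0.49, adjusted p = 3.74e-16).

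Several leaf changes were more upward than those of both other tissues. Apart from the CAP160 gene these were chosen for the comparison after their values were seen. For Gohir.A13G152200 the mean went from 0.551 ± 0.192 to 1.52 ± 0.520 FPKM in root (log2 difference 5.71, SE 0.46, adjusted p = 1.20e-11) and from 2.46 ± 1.55 to 6.11 ± 1.82 FPKM in stem (leaf minus stem, log2 difference 5.28, SE 0.46, adjusted p = 1.23e-09). Gohir.A13G113200 went from 61.01 ± 42.01 to 40.6 ± 8.04 FPKM in root (log2 difference 6.60, SE 0.76, adjusted p = 1.99e-08) and from 36.04 ± 6.75 to 33.9 ± 19.5 FPKM in stem (log2 difference 6.50, SE 0.76, adjusted p = 3.83e-07). The aquaporin Gohir.D04G113366 differed from root (log2 difference 3.77, SE 0.70, adjusted p = 6.09e-05) and from stem (log2 difference 2.91, SE 0.70, adjusted p = 0.00507). The CAP160 gene Gohir.D12G259100 went from 0.169 ± 0.293 to 0.0287 ± 0.0497 FPKM in root (log2 difference 3.34, filter dependent), and had 0 reads in all 6 stem libraries at 0 and 180 min (log2 difference 3.18, filter dependent).

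Some leaf changes differed from those of root or of stem. The channel Gohir.A01G215200 went from 5.60 ± 1.54 to 2.34 ± 2.31 FPKM in root (log2 difference 6.80, SE 0.88, adjusted p = 2.07e-07), while its difference from stem did not pass the threshold (log2 difference 1.85, SE 0.88, adjusted p = 0.192). The galactosyltransferase Gohir.A05G357500 went from 25.4 ± 6.44 to 7.87 ± 3.78 FPKM in stem (log2 difference 5.22, SE 0.79, adjusted p = 2.66e-05). Over 102 tested family 8 glycosyltransferases and galactinol synthases, 24 changed more upward and 1 more downward in leaf than in stem, against 5.31% and 5.54% of all genes. Compared with root, 29 changed more upward and 14 more downward, against 16.1% and 18.3% of all genes (39 and 8 of the 102 under the own-total scaling). The heat shock factor Gohir.A05G030700 went from 0.183 ± 0.103 to 0.0952 ± 0.0357 FPKM in stem (log2 difference 2.99, filter dependent). The patatin-like lipase Gohir.A06G016650 (A06, 1633045 to 1637728) stood at 24.3, 31.02 and 52.6 FPKM at 0 min and 1.05, 0.457 and 1.19 FPKM at 180 min in leaf (change of -4.23 in log2, SE 0.27, adjusted p = 6.34e-07), and went from 0.127 ± 0.111 to 16.5 ± 14.2 FPKM in stem (log2 difference -7.91, SE 0.44, adjusted p = 9.81e-15). Chalcone synthase Gohir.D10G144300 went from 14.3 ± 3.80 to 11.5 ± 15.2 FPKM in stem, a difference from leaf that did not pass the threshold (log2 difference -2.60, SE 1.13, adjusted p = 0.144).

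**Figure D5:**
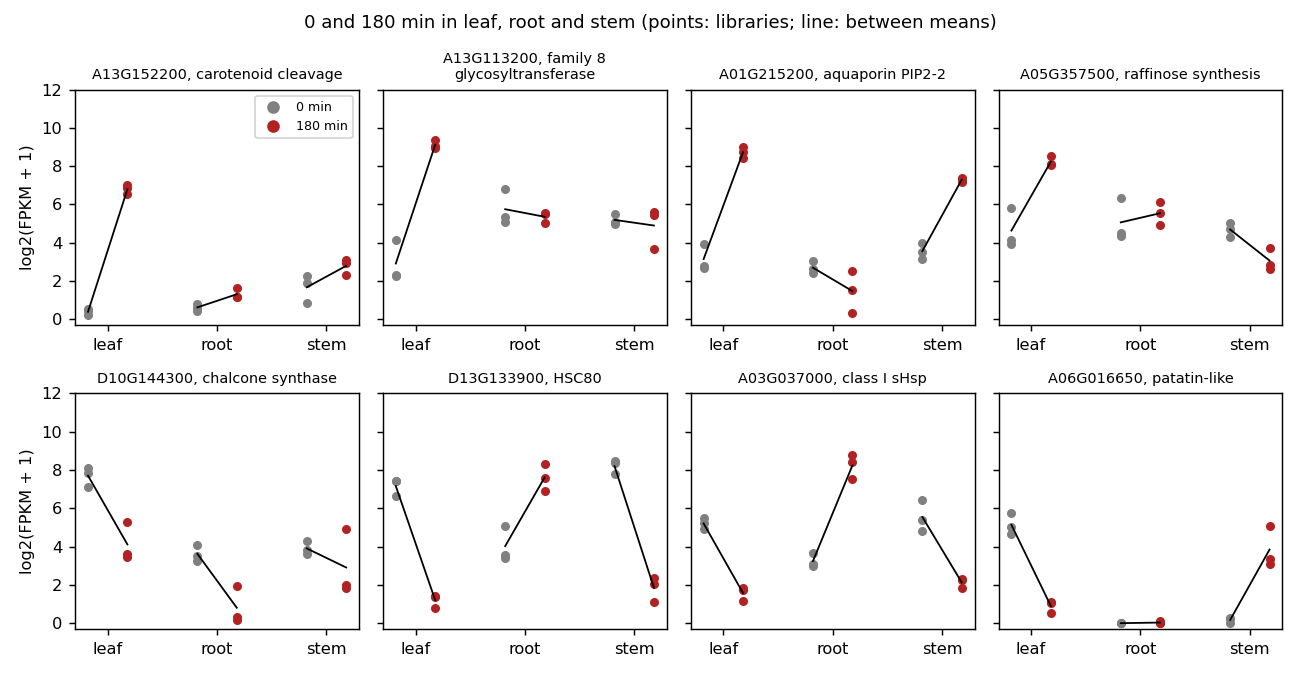
Level of 8 named genes at 0 min (grey) and 180 min (red) in leaf, root and stem, as log2(FPKM + 1), with points for libraries and lines between the means of 3. The means of HSC80 (Gohir.D13G133900) and the class I small heat shock protein are lower at 180 min in leaf and stem and higher in root, while those of the family 8 glycosyltransferase and the carotenoid cleavage gene climb far more in leaf than in the other tissues.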

How the data were processed

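Gene expression was measured by RNA sequencing (NEBNext Ultra libraries) in 45 libraries, of which the 15 of leaf entered the comparison of 180 with 0 min. The submitters' processing notes name HISAT2 2.0.5 (mapping) as well as featureCounts 1.5.0-p3 (counting). The deposited table holds FPKM made by the authors; multiplied by gene length, 100% of values came out as whole reads within 0.01 read, with library sizes scaled by median-of-ratios factors over 42188 genes. These reads served only as an alternative (limma voom) and for depth, which was 16373617 to 21774520 reads a library. FPKM are normalized values, so the main test was limma 3.58.1 in R 4.3.3 on log2(FPKM + 1), with intensity trend and robust variance, Benjamini-Hochberg adjustment over all 46265 genes and a threshold of 0.05. A fold change on this scale understates the change of low genes. The fit was tested on simulated data.

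Tissue differences are interaction terms in 1 fit of 45 libraries. The 2 root columns at 0 min that share 1 name were both used, with no replicate number. Gene lists were searched in the table's descriptions; members and lists were chosen with earlier results of these data known, and some lists were narrowed after reading descriptions. Genes named were, of those described, the 8 that rose most and the 8 that fell most, the 5 with the largest rise and fall in mean FPKM, the 2 called members of each list with the smallest adjusted p each way, and the 3 with the smallest p for each tissue difference, or a subset; others are said to be chosen after their values were seen. Summed levels of a list cover all its members in the table, tested or not. A level of 3 reads stood in for 0 in fold bounds, which cover counting error only. Alternatives were another pseudocount, filter, scaling or fit, a replicate block, and leaving out each library. Sequences were not used here.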

Additional observations from a re-analysis of the deposited data

Results flagged for a closer look

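The response of leaf differed from that of root in 18819 genes and from that of stem in 5930 genes by the interaction term of the limma fit of all 45 libraries, with adjusted p-values under 0.05. Against root, the log2 difference between the responses was -9.54 for the Hsp90 gene Gohir.D13G133900, -9.35 for the BAG domain gene Gohir.D02G173100 and -8.62 for the small heat shock protein Gohir.A03G037000. It was also negative, at -3.42, for Gohir.D04G019500, described as a cytoplasmic glutamate-tRNA ligase. That gene went from 8.92 ± 1.35 to 5.45 ± 0.442 FPKM in leaf and from 7.24 ± 1.09 to 56.4 ± 6.54 FPKM in root (SD, n = 3 each). The leaf response was the higher one for the aquaporins Gohir.A01G215200 (6.80) and Gohir.D04G113366 (3.77), the family 8 glycosyltransferase Gohir.A13G113200 (6.60), the carotenoid cleavage gene Gohir.A13G152200 (5.71) and the CAP160 gene Gohir.D12G259100 (3.34). The value of the last depends on the pseudocount, since the gene had 0 reads in leaf at 0 min. That gene and the heat shock factor Gohir.A05G030700 reached 1 FPKM in 3 of the 45 libraries only through leaf at 180 min, so their differences were set by the filter and are descriptions.

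Against stem, the log2 difference was -7.91 for the patatin-like gene Gohir.A06G016650. It was positive for Gohir.A13G113200 (6.50), Gohir.A13G152200 (5.28), the galactosyltransferase Gohir.A05G357500 (5.22), Gohir.D12G259100 (3.18), the heat shock factor Gohir.A05G030700 (2.99) and Gohir.D04G113366 (2.91). These differences, and that of Gohir.D10G144300 from stem, were repeated 331 times in all under other settings or without 1 library. Of these, 0 repeats changed direction or side of the threshold. The repeats include those of the filter dependent genes Gohir.D12G259100 and Gohir.A05G030700, for which a kept call is no test. For this comparison, all but Gohir.D04G019500, Gohir.D02G173100, Gohir.D12G259100, Gohir.A05G030700 and Gohir.A06G016650 were chosen after their values were seen. That choice, or the choice of the others by smallest p, favoured kept calls.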

How the results depend on the processing

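With 3 libraries a group, and no plants without PEG at 180 min, the comparison cannot separate PEG from time, and genes of a few reads could not show a change. For 180 against 0 min, leaving out 1 library gave totals of 5790 to 7173 called genes, 3046 to 3815 higher and 2744 to 3621 lower. The lower count fell by over 1.5 times without 0 min replicate 2 (2877). For 180 against 60 min the ranges were 2770 to 3784, 1788 to 2216 and 982 to 1576. Leaf against stem gave 4177 to 7760, 2165 to 3788 and 1998 to 3972, and leaf against root 16485 to 20228, 7658 to 9475 and 8680 to 10753. Division by each library's own total moved the leaf against root split to 15192 higher and 5498 lower. A fit of the 12 libraries alone gave 2532 for leaf against stem (1428 higher, 1104 lower). The cause of these shifts was not tested. Pseudocount 0.1, no filter, a filter at 5 FPKM, quantile normalization, limma voom on reads and a fit of the 6 libraries alone kept the 180 against 0 min counts within 1.5 times. Of 2114 single-gene values under such settings 2087 kept direction and call, 27 lost the call, and 0 changed sign. On leaving out 1 library 1487 of 1569 did, and 82 lost the call. Both counts include the filter dependent genes, for which a kept call is no test. The genes were also named for large changes, small p-values or values already seen in the same data. That choice favoured kept calls, so the counts do not speak for called genes in general. Of list counts, 73 of 992 and 196 of 744 moved by over 1.5 times. A replicate block gave 4088 higher and 3927 lower. After each gene's group mean was subtracted, the deviations of same-numbered libraries at 0 and 180 min correlated at -0.38, 0.13 and -0.02. Not every library correlated best with its own number. With 3 libraries a group, the deviations of a group sum to 0, so these values cannot settle whether numbers pair libraries.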

Other observations

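Lipases of the patatin type, which release fatty acids from membrane and storage lipids, had neighbours that fell together. Next to Gohir.A06G016650 on A06, Gohir.A06G016700 (A06, 1639208 to 1644890) stood at 115, 165 and 193 FPKM at 0 min and 31.2, 23.1 and 15.1 FPKM at 180 min (change of -2.75 in log2, SE 0.31, adjusted p = 4.88e-05). Over all 103 tested patatin and class 3 lipases, 14 rose (13.6%) and 16 fell (15.5%), against 9.89% and 9.61% of all tested genes. 8 to 9 rose without 0 min replicate 3 or 180 min replicate 2 or 3, and 10 fell without 0 min replicate 3 or 180 min replicate 2. Ribosomal proteins, the bulk of the translation machinery, moved less often than genes in general, with 8 rising and 32 falling of 872. Leaving out 0 min replicate 1, 2 or 3 or 180 min replicate 1, 2 or 3 gave 2 to 5 that rose, and leaving out 0 min replicate 1 or 2 or 180 min replicate 1 or 3 gave 11 to 18 that fell. Their summed level was 20164 to 23798 FPKM at 0 min and 19032 to 22855 FPKM at 180 min, so the groups overlapped. Of 18 genes for alcohol dehydrogenase, pyruvate decarboxylase and related enzymes, 0 rose and 4 fell.

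Auxin signalling and transport genes gave 29 that rose and 13 that fell of 174. The number that rose was 19 without 180 min replicate 2, and the number that fell was 4 to 8 without 0 min replicate 2 or 3 or 180 min replicate 1, 2 or 3. Gohir.A12G114900 (A12, 82122846 to 82123202), described as SAUR32, of an early auxin response family, rose from 10.05 ± 0.918 to 68.03 ± 21.1 FPKM (change of 2.60 in log2, SE 0.28, adjusted p = 3.50e-05). Glutathione S-transferases, which attach glutathione to reactive compounds, had 9 rising and 9 falling of 113 (7.96% each, against 9.89% and 9.61% of all tested genes). On leaving out 0 min replicate 1 or 180 min replicate 2, 5 rose, and on leaving out 180 min replicate 1 or 2, 4 to 5 fell. Gohir.A10G068200 (A10, 10010778 to 10013524) of that family stood at 21.2, 18.2 and 14.6 FPKM at 0 min and 189, 130.2 and 84.2 FPKM at 180 min (change of 2.77 in log2, SE 0.31, adjusted p = 5.57e-05), with means of 23.8, 28.3 and 59.6 FPKM at 10, 30 and 60 min. A calcium-dependent channel gene, Gohir.D06G144700 (D06, 52754778 to 52758000), rose from 4.72 ± 0.905 to 79.2 ± 4.89 FPKM (change of 3.82 in log2, SE 0.37, adjusted p = 1.62e-05).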
